A study of Mus musculus with 16 samples.

Results

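Genes of apoptotic cell recognition were followed through engrafted brain macrophages and host microglia, namely the receptors Axl, Mertk and Timd4 and the soluble bridging molecules Gas6, Pros1 and Mfge8. They were taken by gene symbol, as a rule that names them and sets no limit on a measured value, and are 6 of the 24411 genes of the deposited count table. They were chosen with earlier results of these data known, and the study itself reports Axl expression in engrafted cells. Graft-derived cells carried 5.54 times as much Axl as host microglia and 3.5 times less Pros1, and the differences remained after challenge with lipopolysaccharide (LPS). Gas6 fell after LPS by 7.64-fold in engrafted cells and by 3.26-fold in host microglia. The difference between these falls was not called in the main test. Mertk and Mfge8 were counted at low levels and passed no threshold, and Timd4 was close to absent from both populations.

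Axl and Mertk belong, with Tyro3, to the TAM family of receptor tyrosine kinases, which macrophages use to take up dying cells and to restrain innate immune signalling. They do not touch the dying cell themselves. Gas6 and protein S, encoded by Pros1, are vitamin K dependent proteins that hold the lipid phosphatidylserine on the apoptotic membrane with one end and a TAM receptor with the other. Gas6 binds all TAM receptors, including Axl, whereas protein S acts on Mertk and Tyro3. Mfge8 is a bridge of another kind, from phosphatidylserine to the integrins alpha-v beta-3 and alpha-v beta-5, and Timd4 (TIM-4) is a receptor that binds phosphatidylserine directly. Microglia of the healthy brain are known for Mertk, and Axl is known to be induced in microglia and other macrophages under inflammatory conditions.

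The libraries were made from chimeras, that is, C57BL/6J wild-type (WT) recipients with CD45.2 alleles that had been irradiated with 950 cGy and transplanted with WT bone marrow (BM) carrying CD45.1. The labels allow 3.5 or 9 months between transplantation and sorting and assign no time to single libraries, while the study's text gives the later time. Mice 1 to 4 were injected with LPS at 2.5 mg/kg and killed 12 h later, and mice 5 to 8 received no LPS. From the brain of each mouse, Ly6C/G-negative, CD11b-positive cells were sorted as low in CD45.1 (engrafted cells) or low in CD45.2 (host microglia), 10000 cells per sample by the labels, which gave 16 libraries in 4 groups of 4. Every group, the unchallenged host microglia included, thus came from an irradiated brain, and without a recipient that was not irradiated the transplantation itself cannot be told apart from the state of the host cells. The study reports that engrafted cells differed in their transcriptomes from microglia of unirradiated mice of the same age too, which are not among these libraries. Because the cells were sequenced in bulk, fewer cells with a transcript and less of it per cell cannot be told apart either.

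The libraries held 395283 to 1203597 reads on genes (median 820587.5), the engrafted library of LPS mouse 4 being the shallowest. Levels are given as CPM, read counts scaled to the effective library size from edgeR's TMM method, and 3 reads, the limit that a count of 0 allows, corresponded to 2.39 to 8.41 CPM. These limits cover counting error only. The libraries captured the 3′ ends of transcripts, so CPM does not scale with length, and levels were compared between samples and not between genes. The summed level of 7 microglial markers was 16865 to 19566 CPM in unchallenged host and 9713 to 11415 CPM in unchallenged engrafted libraries, and 7690 to 8662 and 3000 to 4071 CPM after LPS. The summed level of 7 markers of perivascular macrophages was 1373 to 1545 CPM in unchallenged and 1010 to 1298 CPM in LPS engrafted libraries. In the host libraries it was 26.6 to 41.9 CPM. Lyve1 of this list had only 1 to 3 reads per unchallenged and 0 to 1 read per LPS engrafted library. With LPS, the engrafted ranges of Cd163 and F13a1 moved up without overlap, and those of Cbr2, Pf4 and Ms4a7 moved down. The summed level of 5 monocyte markers was 162 to 283 CPM in engrafted libraries at rest and 886 to 1887 CPM after LPS, against 8.77 to 23.5 and 5.73 to 19.5 CPM in host libraries. Of these markers, Ly6c2 went from 21.6 to 39.3 CPM at rest to 412 to 871 CPM after LPS in engrafted libraries and Plac8 from 10.1 to 30.2 CPM to 202 to 630 CPM, whereas Ccr2 went from 84.6 to 227 CPM to 31.7 to 62.5 CPM. The summed level of neutrophil markers (47.6 to 791 against 0 to 15 CPM over 5 genes) was also higher in every engrafted library, although the sort gate left out Ly6C/G-positive cells. At rest S100a8 and S100a9 made up most of the engrafted sums, while Cxcr2 had 0 reads and Mmp8 at most 1 read in these libraries. After LPS, Mmp8 had reads in every engrafted and in no host library, whereas Cxcr2 was seen in both populations. Red blood cell markers (5 genes) summed to 8587 CPM in the engrafted and 1107 CPM in the host library of LPS mouse 4. In unchallenged mouse 8 these sums were 5745 and 1021 CPM, and in the libraries of all other mice 3.19 to 233 CPM. The part of these cell types in the results below was not tested.

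The promoters of Axl, Gas6 and Pros1 are shown because these members changed with population or challenge. RefSeq's promoter table (GRCm38.p6) held all 6 members. The 300 bases, 250 before the start site and 50 from it on, occur once and without a difference in mm9, the build of the count table. Axl (NM_001190974) lies on the minus strand of chromosome 7 (26541519 to 26573752), Gas6 (NM_019521) on the minus strand of chromosome 8 (13465374 to 13494535) and Pros1 (NM_011173) on the plus strand of chromosome 16 (62854133 to 62929168). None of the 6 members overlapped another gene of the table on either strand. In the sequences, written 5′ to 3′ on the strand of the gene, capitals mark matches on either strand to GGGNNNNNCC (NF-kB), GAGGAA (the PU.1 core) or GGGCGG (the GC box).
Axl promoter, chr7:26573703-26574002, minus strand: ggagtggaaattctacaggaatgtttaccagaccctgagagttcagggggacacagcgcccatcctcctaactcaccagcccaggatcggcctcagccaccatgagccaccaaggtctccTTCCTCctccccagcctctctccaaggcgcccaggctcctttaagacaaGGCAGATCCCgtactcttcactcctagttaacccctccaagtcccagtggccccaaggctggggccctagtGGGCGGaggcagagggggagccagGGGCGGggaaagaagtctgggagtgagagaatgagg
Gas6 promoter, chr8:13494486-13494785, minus strand: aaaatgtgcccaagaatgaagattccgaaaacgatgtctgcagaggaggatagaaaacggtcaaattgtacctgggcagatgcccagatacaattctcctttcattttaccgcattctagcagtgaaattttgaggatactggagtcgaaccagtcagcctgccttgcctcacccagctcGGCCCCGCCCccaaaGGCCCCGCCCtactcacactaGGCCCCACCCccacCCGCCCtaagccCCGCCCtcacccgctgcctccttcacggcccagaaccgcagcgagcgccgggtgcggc
Pros1 promoter, chr16:62853883-62854182, plus strand: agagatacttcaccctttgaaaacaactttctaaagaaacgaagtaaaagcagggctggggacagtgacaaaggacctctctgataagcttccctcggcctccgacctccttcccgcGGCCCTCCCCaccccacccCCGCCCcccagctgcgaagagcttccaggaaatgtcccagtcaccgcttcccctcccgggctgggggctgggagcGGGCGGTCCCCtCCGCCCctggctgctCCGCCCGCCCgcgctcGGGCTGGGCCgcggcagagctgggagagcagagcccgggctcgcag

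The GC content of these windows was 60.3% for Axl, 58.3% for Gas6 and 66.7% for Pros1. The Axl window held the PU.1 core 1 time, at position -130 from the start site, together with 1 match to the NF-kB letters and 2 GC boxes, the first at -10. Those of Gas6 and Pros1 held no PU.1 core, 3 and 4 NF-kB matches, and 4 and 5 GC boxes, and in both promoters NF-kB matches overlapped GC boxes. Among 32841 promoters of the same length, 50.8% held the NF-kB letters, 28.3% the PU.1 core and 35.7% a GC box. The interferon-stimulated response element, searched as GAAANNGAAA and held by 3.44% of promoters, was in none of the 6 windows, nor were the AP-1 letters TGANTCA (7.81%) and TGANNTCA (14.1%). A match is a description of the letters and not of a bound site.

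To ask how engrafted cells and host microglia of the same brains differed at rest, the 4 unchallenged libraries of each were compared with edgeR's quasi-likelihood test, and a gene was called at a difference above 2-fold with a Benjamini-Hochberg adjusted p below 0.05. Of the 6 members, 5 had enough reads to be tested, and 2 of these were called, Axl as higher and Pros1 as lower in engrafted cells, beside 11% of the 8042 genes tested. The libraries of the populations did not overlap for 3 members, as for 26.6% of the genes tested.

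Axl, the receptor, stood at 722, 681, 691 and 763 CPM in the engrafted cells of mice 5 to 8, and at 96.6, 102, 154 and 181 CPM in their host microglia. The lowest engrafted library was far above the highest host library. The means were 714 ± 36.8 and 133 ± 40.8 CPM (SD, n = 4), a log2 fold change of 2.47 (standard error, SE, 0.16, adjusted p = 4.07e-12, edgeR). Within the host microglia the level spread more than among the engrafted cells, with mice 7 and 8 above mice 5 and 6.

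Mertk (NM_008587, chromosome 2, 128524733 to 128627924), the TAM receptor that binds both Gas6 and protein S, was counted at 28.2, 18.5, 36 and 16.2 CPM in engrafted cells and at 49.8, 40.8, 37.5 and 33.7 CPM in host microglia of the same mice. The groups overlapped at a single library, the engrafted one of mouse 7. With 9 to 47 reads per library, the log2 fold change of -0.60 (SE 0.25) did not pass the threshold (adjusted p = 0.0805, edgeR).

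As Axl and Mertk share Gas6 as a ligand, the ratio of both receptors was taken within each library, where library size cancels. On the scale log2((Axl CPM + 1)/(Mertk CPM + 1)) it was 4.63, 5.13, 4.22 and 5.47 in engrafted cells of mice 5 to 8 and 0.94, 1.30, 2.01 and 2.39 in host microglia. All engrafted libraries were above all host libraries, by 3.20 on average (p = 0.0286 by a two-sided exact permutation test, which cannot give a smaller value with 4 against 4, and 0.114 after Benjamini-Hochberg adjustment over the 4 comparisons of this ratio). Tyro3, the remaining TAM receptor, did not reach the filter and had 0 to 3 reads in any library.

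Timd4 (NM_178759, chromosome 11, 46624301 to 46657835) had 3 reads in all 16 libraries. They lay in the unchallenged host microglia of mouse 6 (0.971 CPM) and in the LPS host microglia of mice 1 and 3 (1.15 and 1.21 CPM), with 1 read each, and none of the 8 engrafted libraries had a read. A difference was not detectable at this depth (two-sided exact permutation tests, p = 1 between populations at rest and p = 0.429 after LPS).

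**Figure D1:**
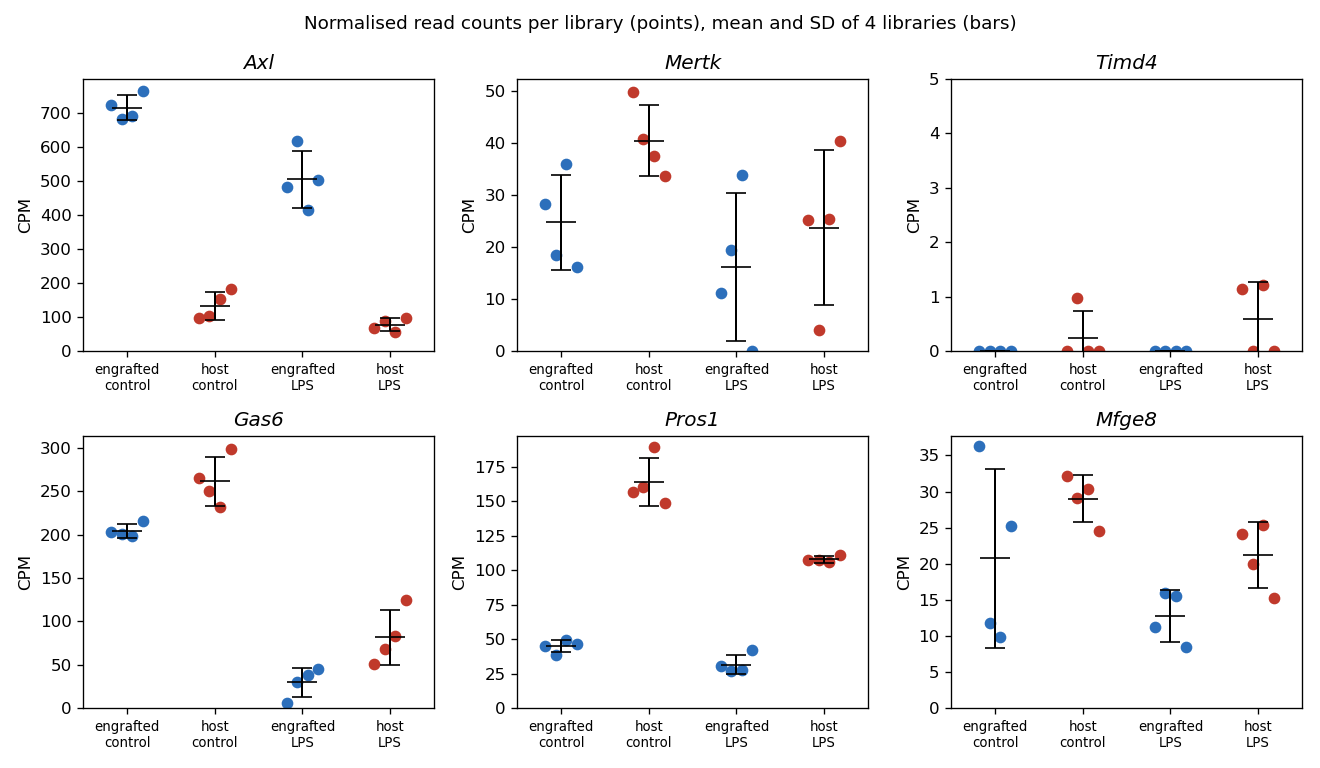
Normalised read counts (CPM, y axis, a separate scale for each gene) of the 6 members in the 16 libraries, grouped on the x axis by population and challenge, with points for libraries and bars for the mean and SD of 4. Engrafted cells (blue) lie above host microglia (red) for Axl and below them for Pros1 in both states, Gas6 is low in both populations after LPS, and Timd4 stays at or below 1.21 CPM.

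Among the ligands, Pros1 was called lower in the graft. Its levels were 45.3, 38.8, 49.2 and 46.8 CPM in engrafted cells of mice 5 to 8 against 157, 160, 189 and 149 CPM in host microglia. No engrafted library came near a host library, and the means of 45 ± 4.45 and 164 ± 17.5 CPM (SD, n = 4) gave a log2 fold change of -1.81 (SE 0.15, adjusted p = 4.77e-10, edgeR). The astrocyte marker list was also lower in these engrafted libraries (13.1 to 43.8 against 177 to 305 CPM). Slc1a3 alone had 157 to 285 reads per host library, and without it the sums were 9 to 33.7 against 1.02 to 74.7 CPM. Gfap had at most 1 read in any library. The part of astrocytes in the Pros1 difference was not tested.

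Gas6, the ligand of Axl, was at 203, 201, 198 and 216 CPM in unchallenged engrafted cells and at 265, 250, 232 and 299 CPM in host microglia. Here too the libraries did not overlap, yet the distance was small, 205 ± 7.89 against 261 ± 28.5 CPM (SD, n = 4), and the log2 fold change of -0.30 (SE 0.13) was not called (adjusted p = 0.105, edgeR). Mfge8 (NM_001045489, chromosome 7, 86278654 to 86293946, minus strand) was at 36.3, 11.8, 9.83 and 25.2 CPM in engrafted cells and at 32.2, 29.1, 30.3 and 24.5 CPM in host microglia. The engrafted libraries spread on both sides of the host range, from 6 to 36 reads, and the log2 fold change was -0.33 (SE 0.31, adjusted p = 0.485, edgeR).

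The same comparison was then made in the LPS-challenged mice, with libraries independent of those at rest. It called 3 of the 5 tested members, Axl as higher and Gas6 and Pros1 as lower in engrafted cells, beside 11.1% of 7843 genes. For these 3 the libraries did not overlap, as for 20.6% of the genes tested. Scaling by library totals in place of TMM shifted the median log2 difference over the genes tested here from -0.01 to -0.16, and the calls of the members held on either scale.

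Axl was at 482, 617, 414 and 502 CPM in engrafted cells of mice 1 to 4, and at 68.8, 88.7, 56.7 and 97.4 CPM in their host microglia. All engrafted libraries were again above all host libraries, with means of 504 ± 84.6 and 77.9 ± 18.5 CPM (SD, n = 4) and a log2 fold change of 2.71 (SE 0.23, adjusted p = 9.77e-08, edgeR). Mertk had 11.2, 19.5, 33.8 and 0 CPM in engrafted cells and 25.2, 3.99, 25.4 and 40.3 CPM in host microglia. Both groups overlapped and each held a library with at most 4 reads, the engrafted one of mouse 4 and the host one of mouse 2.

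The Mertk log2 fold change of -0.34 (SE 0.56) was not called (adjusted p = 0.759, edgeR) and was 0.03 without the host library of mouse 4. The Axl to Mertk ratio on the same log2 scale was 5.31, 4.91, 3.57 and 8.97 in engrafted cells and 1.41, 4.17, 1.13 and 1.25 in host microglia. These groups overlapped, since the host library of mouse 2 stood above the engrafted library of mouse 3. The mean difference was 3.70 (two-sided exact permutation test, p = 0.0571, adjusted p = 0.114 over 4 comparisons), and its extremes rest on the Mertk counts of 0 and 4.

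Pros1 was at 30.2, 26.8, 27.3 and 42.1 CPM in LPS engrafted cells against 107, 107, 106 and 111 CPM in host microglia. The host libraries lay within a narrow band far above the engrafted ones, and the means of 31.6 ± 7.12 and 108 ± 2.39 CPM (SD, n = 4) gave a log2 fold change of -1.80 (SE 0.21, adjusted p = 4.62e-06, edgeR), a 3.48-fold lower level in the graft. Gas6 was at 5.59, 30.5, 37.7 and 44.9 CPM in engrafted cells and at 50.5, 67.8, 83.3 and 125 CPM in host microglia. No library overlapped, and the engrafted library of mouse 1, with 5 reads, was the lowest. Means of 29.7 ± 17.1 and 81.7 ± 32 CPM (SD, n = 4) gave a log2 fold change of -1.53 (SE 0.40, adjusted p = 0.012, edgeR).

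Mfge8 levels after LPS were 11.2, 15.9, 15.6 and 8.41 CPM in engrafted cells and 24.1, 19.9, 25.4 and 15.3 CPM in host microglia. The ranges met between 15.3 and 15.9 CPM, where the host library of mouse 4 lay just under 2 engrafted libraries, and the log2 fold change of -0.66 (SE 0.31) was not called (adjusted p = 0.171, edgeR).

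**Figure D2:**
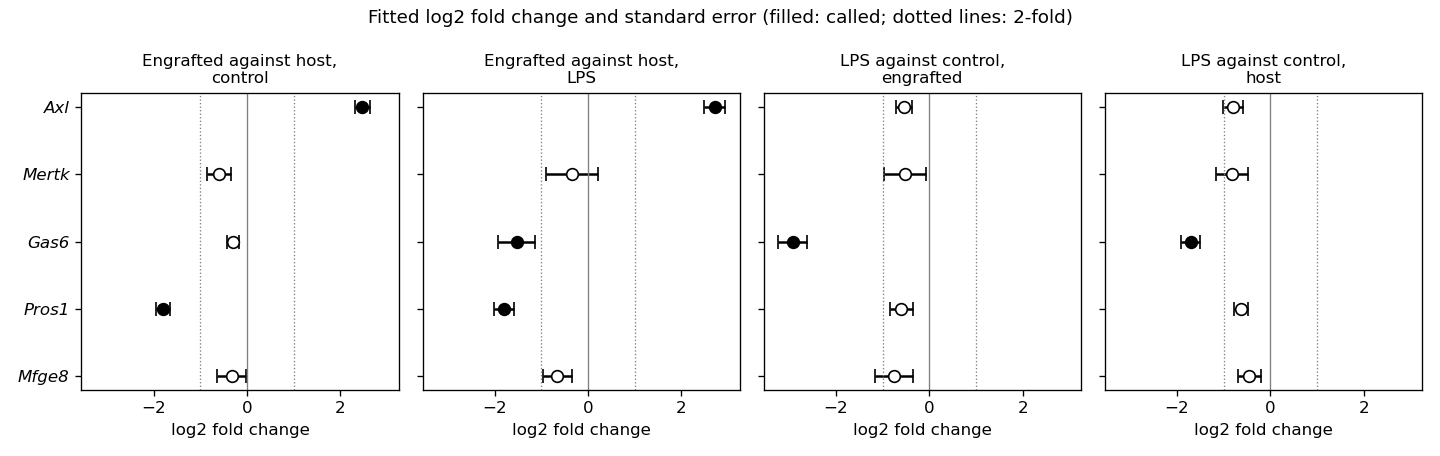
Fitted log2 fold changes (x axis) of the 5 tested members (y axis) in the 4 comparisons, with bars for 1 standard error, filled points for called members and dotted lines at a 2-fold change. Axl lies to the right and Pros1 to the left in both comparisons of engrafted with host cells, and all 5 members lie left of 0 in both comparisons of LPS with control.

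The response to systemic LPS was compared within each population, between mice. These comparisons share their libraries with the previous ones. Gas6 was the only one of the 5 tested members called, and it was called in both populations, beside 21.5% of 7609 genes in engrafted cells and 18% of 8238 genes in host microglia. With no limit on the fold, 2 members passed an adjusted p of 0.05 in engrafted cells, Axl and Gas6, beside 38.7% of genes, and 3 in host microglia, Axl, Gas6 and Pros1, beside 39.7%. Libraries at rest and after LPS did not overlap for Axl and Gas6 in engrafted cells (35% of genes) and for Gas6 and Pros1 in host microglia (35.7%). All 5 members had a lower fitted level after LPS in either population, while the median over the genes tested was -0.01 in engrafted cells and 0.01 in host microglia.

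In engrafted cells, Gas6 went from 198 to 216 CPM at rest to 5.59 to 44.9 CPM after LPS, with no overlap, a log2 fold change of -2.93 (SE 0.31, adjusted p = 3.96e-07, edgeR). In host microglia it went from 232 to 299 CPM to 50.5 to 125 CPM, also with no overlap, a log2 fold change of -1.71 (SE 0.20, adjusted p = 6.72e-07, edgeR). In the same engrafted libraries the monocyte marker sum was 162 to 283 CPM at rest and 886 to 1887 CPM after LPS, and in the host libraries it did not rise. Among the 4 engrafted LPS libraries, that of mouse 1 had the lowest Gas6 (5.59 CPM) and the highest monocyte sum (1887 CPM), and that of mouse 4 the highest Gas6 (44.9 CPM) and the lowest monocyte sum (886 CPM). The host LPS libraries had the same mice at the ends for Gas6, mouse 1 lowest (50.5 CPM) and mouse 4 highest (125 CPM). Their monocyte sums ran the other way, 5.73 CPM in mouse 1 and 19.5 CPM in mouse 4. The part of monocytes in the fall of Gas6, and in the other LPS changes of engrafted cells, was not tested.

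The other TAM ligand, Pros1, fell from 149 to 189 CPM to 106 to 111 CPM in host microglia, below 2-fold (log2 fold change -0.62, SE 0.15, adjusted p = 0.00184, edgeR). In engrafted cells Pros1 went from 38.8 to 49.2 CPM to 26.8 to 42.1 CPM, with overlap at mouse 4, and the same size of difference did not pass the test (log2 fold change -0.60, SE 0.25, adjusted p = 0.059, edgeR).

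Axl fell by less than 2-fold in both. In engrafted cells the level went from 681 to 763 CPM to 414 to 617 CPM with no overlap (log2 fold change -0.54, SE 0.18, adjusted p = 0.0192, edgeR). In host microglia it went from 96.6 to 181 CPM to 56.7 to 97.4 CPM, where only the host libraries of mice 4 and 5 crossed (log2 fold change -0.80, SE 0.21, adjusted p = 0.00416, edgeR). Thus engrafted cells after LPS still carried several times the Axl of unchallenged host microglia, 414 CPM in the lowest engrafted library against 181 CPM in the highest host library, 2 groups that were not tested against each other.

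Mertk had log2 fold changes of -0.53 in engrafted cells (SE 0.45, adjusted p = 0.365, edgeR) and -0.82 in host microglia (SE 0.35, adjusted p = 0.0619, edgeR). The latter depended on 1 library, since without the host library of LPS mouse 4 it was -1.18 with an adjusted p of 0.00766 (edgeR), which is called. Mfge8 had -0.76 in engrafted cells (SE 0.41, adjusted p = 0.143, edgeR) and -0.45 in host microglia (SE 0.24, adjusted p = 0.144, edgeR). The Axl to Mertk ratio did not differ detectably with LPS, by 0.83 in engrafted cells (two-sided exact permutation test, p = 0.686, 0.8 after adjustment over 4 comparisons) and by 0.33 in host microglia (p = 0.8 before and after the adjustment, exact permutation test).

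Since both populations of a mouse came from 1 brain, each mouse also gives a ratio of its own. These ratios use the same libraries as before. For Axl, Pros1 and Gas6 the populations did not overlap in either state, which already fixed the direction in every mouse. Axl was higher in engrafted cells in 8 of 8 mice, 4.22 to 7.47 times at rest and 5.15 to 7.29 times after LPS. Pros1 was lower in 8 of 8 mice, the engrafted level being 0.242 to 0.314 of the host level at rest and 0.252 to 0.378 after LPS. The challenge thus left both ratios in overlapping ranges. Gas6 was also lower in 8 of 8 mice, at 0.722 to 0.854 of the host level at rest, and after LPS at 0.111, 0.45, 0.453 and 0.358 in mice 1 to 4. All LPS ratios lay under all ratios at rest, and the share of all genes with such a separation was not counted. Mertk and Mfge8 were lower in engrafted cells in 6 of 8 mice each.

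**Figure D3:**
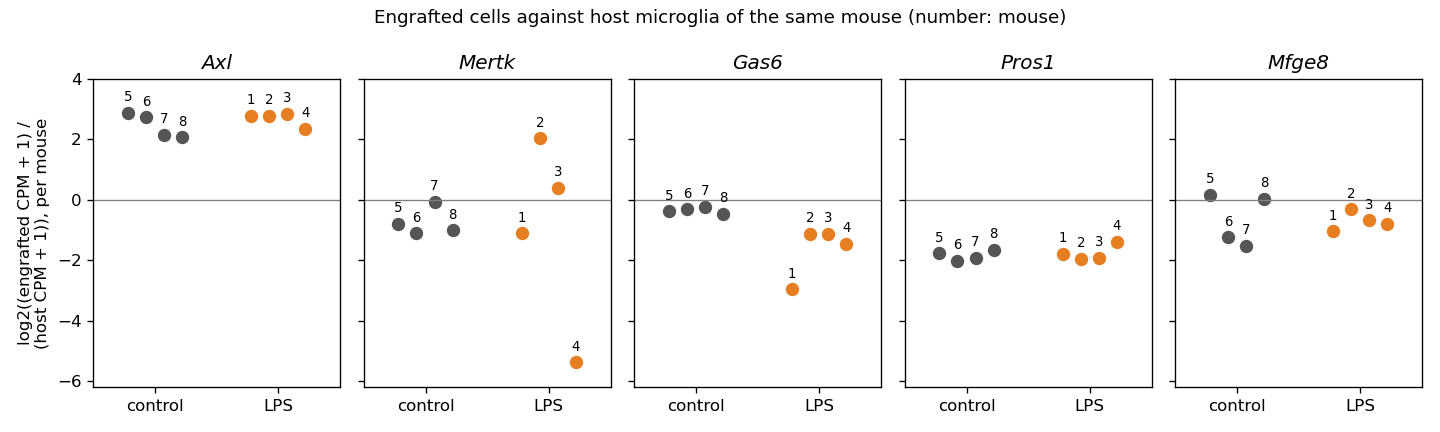
Log2 ratio of engrafted to host level (y axis, CPM with 1 added to each) within each mouse, in unchallenged mice (grey) and LPS mice (orange), for the 5 members with enough reads. The Axl ratios lie above 2 and the Pros1 ratios below -1 in all 8 mice, and the Gas6 ratios of LPS mice 1 to 4 lie below those of mice 5 to 8.

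Whether the response to LPS differed between populations was tested by the interaction of population and challenge over all 16 libraries. It called 0 of the 5 tested members with edgeR, and 0 with DESeq2 or limma-trend, beside 4.95% of 8847 genes. At an unadjusted threshold of 0.05, 1 member passed in edgeR, which was Gas6. The Gas6 interaction was -1.24 on the log2 scale (SE 0.41), a 2.37-fold larger fall in engrafted cells (adjusted p = 0.0748, edgeR). With the mouse as a block, which uses the shared brains, it was -1.21 with an adjusted p of 0.00894 and was called (edgeR). Per mouse, the mean log2 ratio of Gas6 was -1.67 ± 0.88 after LPS and -0.35 ± 0.10 at rest (SD, n = 4), a difference of -1.32 (p = 0.0286 by a two-sided exact permutation test, again its smallest value, and 0.143 adjusted over 5 members).

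The monocyte marker sum moved with it, rising with LPS in engrafted and not in host libraries, and its part was not tested. The Gas6 interaction rested in part on single libraries. Without the engrafted library of LPS mouse 1 it was -0.82 (adjusted p = 0.166) and without the host library of LPS mouse 4 it was -0.95 (adjusted p = 0.178), whereas without the host library of mouse 1 or the engrafted library of mouse 4 it was called at -1.42 (adjusted p = 0.0432) and -1.44 (adjusted p = 0.0292), all from edgeR. The other interactions were 0.24 for Axl (SE 0.28, adjusted p = 0.705, edgeR), 0.28 for Mertk (SE 0.63, adjusted p = 0.864, edgeR) and -0.32 for Mfge8 (SE 0.47, adjusted p = 0.768, edgeR). For Pros1 the estimate was within 0.01 of 0 (SE 0.25, adjusted p = 0.999, edgeR), and its sign turned with RLE size factors in place of TMM.

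The genes around the TAM system were followed in 9 lists with 74 genes, from further phosphatidylserine receptors to the engulfment machinery. At rest, 53 of them were tested, and 7 were called higher and 4 lower in engrafted cells (6.25% and 4.73% of all genes tested), with a median log2 fold change of -0.21 against 0.02 for all genes. With no limit on the fold the balance was reversed, and 8 were higher and 17 lower at an adjusted p below 0.05 (13.6% and 13.7% of all genes tested). On the list of further phosphatidylserine receptors, 2 genes were called higher, which were Stab1, stabilin-1, which binds phosphatidylserine (1206 ± 107 against 417 ± 53.6 CPM, log2 fold change 1.59, adjusted p = 7.3e-11, edgeR), and Cd36, a scavenger receptor (55.7 ± 23.4 CPM in engrafted cells, at most 2 reads per host library). On the same list, 4 receptors were lower by less than 2-fold, with no overlap of libraries, namely Havcr2 (TIM-3, log2 fold change -0.84), Cd300a (-0.60), Lrp1 (-0.53) and Trem2 (-0.31, adjusted p = 0.0152, edgeR). Lgals3, galectin-3, a further ligand of Mertk, was 7.59-fold higher (161 ± 64.9 against 21.7 ± 6.04 CPM, adjusted p = 4.25e-10, edgeR).

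The integrins through which Mfge8 acts differed by chain. Itgb3, the beta-3 chain, was 13.5-fold lower in engrafted cells at rest (4.81 ± 2.76 against 72.4 ± 9.96 CPM, SD, n = 4, adjusted p = 2.53e-10, edgeR) and 14.8-fold lower after LPS (3.76 ± 1.71 against 59.9 ± 10.5 CPM, adjusted p = 1.83e-07, edgeR). Itgb5, the beta-5 chain, was also lower in the graft at rest, with no overlap, at 557 ± 76.8 CPM against 859 ± 115 CPM in the host. The difference was under the 2-fold limit and not called (log2 fold change -0.57, adjusted p = 0.00107, edgeR). After LPS the Itgb5 libraries overlapped, and the log2 fold change was -0.83 (adjusted p = 0.0305, edgeR), also not called. Itgav, their shared alpha chain, had 48.7 ± 9.64 and 49.1 ± 19.3 CPM at rest, and after LPS 17.7 ± 8.44 CPM in the graft against 43.6 ± 5.2 CPM in host microglia (log2 fold change -1.16, adjusted p = 0.00792, edgeR), or -0.98 without the engrafted library of mouse 4.

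Of 8 tested genes that pass on or limit TAM signals, 1 was called higher and 1 lower in engrafted cells at rest (6.25% and 4.73% of all genes tested). Between populations after LPS, 0 of 8 were called, beside 11.1% of all genes tested. Ifnar1, the interferon receptor chain through which TAM receptors act, stood at 187 ± 12.3 CPM in engrafted and 57.5 ± 3.83 CPM in host cells at rest (log2 fold change 1.75, adjusted p = 9.81e-11, edgeR). Socs3, a suppressor of cytokine signalling, was lower in engrafted cells, at 133 ± 28.9 against 523 ± 69.5 CPM (log2 fold change -1.90, adjusted p = 2.78e-10, edgeR), and Socs1 was at 32.8 ± 15.5 and 44.3 ± 8.03 CPM and was not called. Among the nuclear receptors that link engulfment to lipid handling and their target genes, Rxrg had no read in any unchallenged engrafted library and 64 ± 12.3 CPM in host microglia, and Abca1, a cholesterol exporter, was 2.47-fold higher in engrafted cells (302 ± 19.4 against 126 ± 33.8 CPM, adjusted p = 6.83e-07, edgeR).

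The remaining genes called at rest were S1pr1, a receptor for the lipid signal sphingosine-1-phosphate, and Rhbdf1, a partner of the protease that sheds Mertk, both higher, and Vkorc1l1 of the vitamin K cycle, which was lower. S1pr1 had a log2 fold change of 1.77 (adjusted p = 2.27e-07, edgeR) and Rhbdf1 of 1.24 (adjusted p = 0.000434, edgeR). Vkorc1l1, at 6.51 ± 1.93 against 14.5 ± 2.08 CPM, had -1.07 (adjusted p = 0.0351, edgeR), a call that was lost with no filter for low counts, with the mouse as a block and with other tools. Ggcx, the carboxylase that Gas6 and protein S require, had enough reads only for the comparison at rest and the interaction and was called in neither. Vkorc1 was 1.96-fold lower in engrafted cells after LPS, both against engrafted cells at rest (adjusted p = 0.00108, edgeR) and against host microglia after LPS (adjusted p = 0.00457, edgeR), with no overlap but under the 2-fold limit.

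After LPS, 54 of the 74 genes were tested between populations, and 3 were called higher and 6 lower in engrafted cells (6.73% and 4.34% of all genes tested). With no limit on the fold, 5 were higher and 15 lower (9.52% and 7.62%). Higher were Lgals3 (1235 ± 382 against 26.2 ± 9.67 CPM, adjusted p = 1.33e-09, edgeR), Gpr132, a receptor for lipids of dying cells (83.1 ± 26.3 against 13.5 ± 5.07 CPM, adjusted p = 7.53e-06, edgeR), and Nr1h3, the liver X receptor alpha (55.6 ± 25.2 CPM in engrafted cells, at most 2 reads per host library). Lower, beside Itgb3, Itgav and Rxrg, were Cx3cr1, the fractalkine receptor and a microglial marker (log2 fold change -2.36, adjusted p = 1.39e-06, edgeR), Elmo1 of the engulfment machinery (-1.27, adjusted p = 0.000288, edgeR) and P2ry2, a nucleotide receptor (-1.37, adjusted p = 0.00524, edgeR).

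The challenge called 9 of 50 tested genes as higher and 10 as lower in engrafted cells (10.2% and 11.3% of all genes tested), and 8 and 7 of 54 in host microglia (7.66% and 10.4%). With no limit on the fold, the counts were 11 higher and 14 lower in engrafted cells (19.4% and 19.3%) and 17 higher and 12 lower in host microglia (19.2% and 20.5%). Both populations gained Cd300lf, a phosphatidylserine receptor of the CD300 family, from 14.7 ± 4.02 to 432 ± 85.2 CPM in engrafted cells (log2 fold change 4.83, adjusted p = 1.54e-11, edgeR) and from 20 ± 5.79 to 686 ± 63.9 CPM in host microglia (5.05, adjusted p = 8.35e-14, edgeR). Trem2, a lipid receptor of microglia, fell in both, from 2415 ± 106 to 678 ± 181 CPM and from 3120 ± 98 to 1209 ± 175 CPM (adjusted p = 4.69e-07 and 7.64e-08, edgeR). Sirpa, the receptor of the do-not-eat-me signal, also fell in both (log2 fold changes -1.45 and -1.73), while Cd47, the signal itself, rose (1.81 and 1.05, the latter under the 2-fold limit without the host library of LPS mouse 2 or unchallenged mouse 8).

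Elmo1 and S1pr1 fell in both populations as well, from 114 ± 17.5 to 37 ± 11 and from 104 ± 17.5 to 14.9 ± 6.98 CPM in engrafted cells, and from 194 ± 23.7 to 94.4 ± 9.94 and from 32.8 ± 10.5 to 1.43 ± 1.15 CPM in host microglia. Without the host library of LPS mouse 2 the Elmo1 change in host microglia was under 2-fold.

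Other changes were called in a single population, which alone does not show that the populations differ. In engrafted cells Itgav and Itgb5 fell (log2 fold changes -1.37 and -1.04, the latter under the limit without any of 4 libraries), as did Cd36, from 55.7 ± 23.4 to 2.17 ± 1.07 CPM, and Ifnar1, from 187 ± 12.3 to 76.3 ± 24.3 CPM, while Rac2, a GTPase of the engulfing cell, rose from 204 ± 19.5 to 684 ± 164 CPM. Gpr132 and Nr1h3 were also called higher there, with log2 fold changes of 2.30 and 3.63 (adjusted p = 4.83e-06 and 3.07e-06, edgeR). In host microglia Gpr132, Nr1h3 and Cd36 had too few reads to be tested, and Gpr132 went from 1.5 ± 1.73 to 13.5 ± 5.07 CPM. In host microglia P2ry2 rose from 3.55 ± 3.54 to 56 ± 14.6 CPM, and Cd300a, another receptor of the CD300 family, fell from 136 ± 8.9 to 45.4 ± 29 CPM. P2ry2 had too few reads to be tested in engrafted cells, where it went from 0.252 ± 0.504 to 19.5 ± 12.1 CPM. Tnfaip3, a brake on NF-kB, and Rhbdf2, a partner of the protease that sheds Mertk, rose in both populations (log2 fold changes of 2.47 and 2.51 for Tnfaip3, and of 1.91 and 1.42 for Rhbdf2). Rhbdf1, which has the same role, was called lower in engrafted cells, from 51 ± 15.4 to 20.7 ± 5.59 CPM (log2 fold change -1.37, adjusted p = 0.00107, edgeR), and was at 21.6 ± 6.12 and 18.5 ± 4.13 CPM in host microglia.

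**Figure D4:**
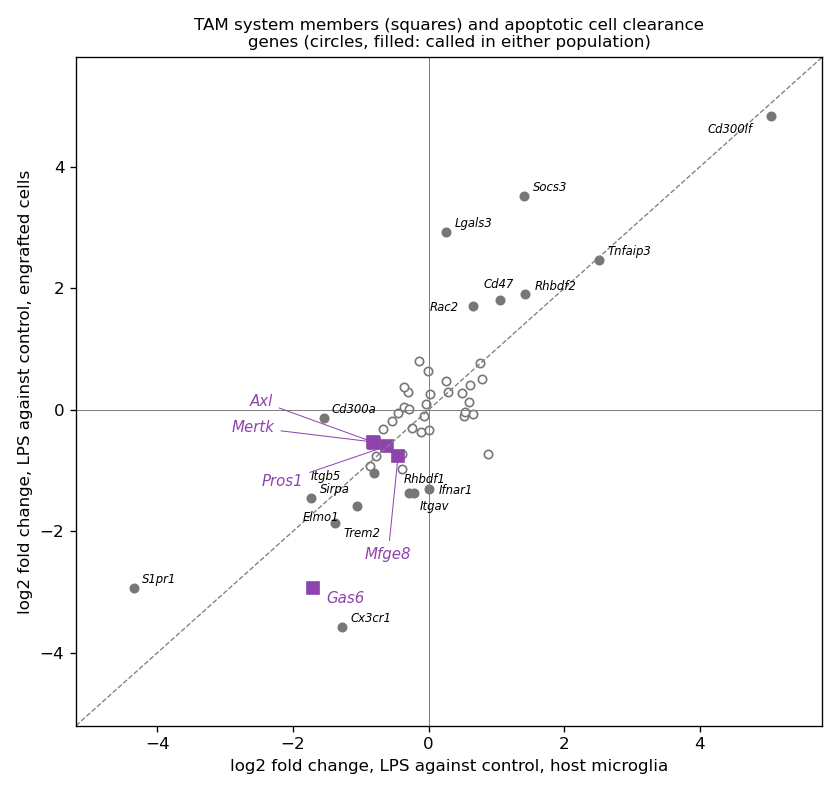
Log2 fold change with LPS in host microglia (x axis) and in engrafted cells (y axis) of the 5 tested members (squares) and the 47 list genes tested in both populations (circles, filled where called in either), with the line of equal change dashed. All 5 members lie in the lower left, Gas6 below the line, and Lgals3 and Socs3 lie well above it.

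A response that differed between populations was called for 9 of 58 tested list genes. The interaction was positive for 5, meaning a higher log2 change in engrafted cells, and negative for 4 (2.45% and 2.5% of all genes tested). Lgals3 rose in engrafted cells and stayed at 21.7 ± 6.04 and 26.2 ± 9.67 CPM in host microglia (interaction 2.65 on the log2 scale, adjusted p = 0.000205, edgeR). Socs3 reached similar levels after LPS, 1575 ± 480 CPM in the graft and 1403 ± 471 CPM in the host, from unequal levels at rest (interaction 2.10, adjusted p = 9.41e-05, edgeR). Abca1 went from 302 ± 19.4 to 186 ± 23.7 CPM in engrafted cells and from 126 ± 33.8 to 232 ± 36.3 CPM in host microglia (interaction -1.61, adjusted p = 0.000179, edgeR). Cx3cr1 fell from 3665 ± 176 to 317 ± 92.9 CPM in engrafted cells and from 3936 ± 227 to 1648 ± 354 CPM in host microglia (interaction -2.32, adjusted p = 7.76e-07, edgeR). The other 5 called interactions were positive for Nr1h3, Cd300a and Rac2 and negative for Cd36 and Ifnar1.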

How the data were processed

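The 16 RNA libraries, of both populations of 8 chimeras, came from a protocol derived from MARS-seq. The authors mapped reads to mm9 with HISAT (0.1.5 per the submitters' processing notes) and deposited raw read counts per RefSeq gene, made with HOMER on exons of the sense strand. No removal of PCR duplicates is stated. Depth was 395283 to 1203597 reads on genes.

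Counts were tested with edgeR 4.0.16 in R 4.3.3 (TMM, filterByExpr with a minimum count of 10 and total of 15, glmQLFit, glmQLFTest) on the groups compared, or on all 16 libraries for the interaction, with Benjamini-Hochberg adjustment over all tested genes. Calls needed an adjusted p below 0.05 with a log2 fold change beyond 1 in size. Standard errors derive from the fitted coefficient and its F statistic. In simulated data, 198 to 200 of 200 changed genes per comparison were recovered, and 1 to 6 other genes were called. The planted changes were well above the 2-fold limit, in genes above a minimum of reads, with 1 spread for all genes and no mouse effect. Recovery near the limit, with more spread, or at read counts as low as those of Mertk and Mfge8 was not tested. Named list genes are, per comparison, list and direction, at most 3 called genes with the largest change, and those with a called interaction. Tyro3, Itgb5, Itgav, Socs1, Ggcx, Vkorc1, Havcr2, Cd300a, Lrp1 and Trem2 are also named where they were not called, chosen after their values were seen. The members and all gene lists were chosen with earlier results of these data known.

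Libraries with the same number come from 1 mouse, and their deviations from group means correlated at -0.0387 to 0.194 over 8526 genes. The study's methods name no term for the mouse, and the main design had none. The mouse as a block, other scalings, filters and tools (DESeq2 1.42.0, limma 3.58.1) and leaving out each library were alternatives.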

Additional observations from a re-analysis of the deposited data

Results flagged for a closer look

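Among 26 sets of 4 libraries (the 6 members and the receptor ratio), 3 had a library whose gap to its nearest neighbour took up most of the range by Dixon's test, which chance gives in about 1 in 20 sets. Timd4 stood at 0.971 CPM in the unchallenged host library of mouse 6, a single read beside 3 libraries at 0. Pros1 stood at 111 CPM in the LPS host library of mouse 4, beside 106 to 107 CPM in the other 3, a distance of few reads. The log2 ratio of Axl to Mertk was 4.17 in the LPS host library of mouse 2, against 1.13 to 1.41 in the others, and rested on 4 Mertk reads.

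The response to LPS differed between engrafted cells and host microglia, by the interaction term of edgeR's quasi-likelihood test, for 9 genes of the lists. Positive values mean a higher response in engrafted cells, and they were 2.65 for Lgals3, 5.14 for Nr1h3, 2.10 for Socs3, 1.41 for Cd300a and 1.05 for Rac2 on the log2 scale. Negative values were -2.32 for Cx3cr1, -1.61 for Abca1, -5.38 for Cd36 and -1.30 for Ifnar1. The estimates for Nr1h3 and Cd36 depend on the prior count, since 3 of 4 groups had at most 5 reads per library, and the Cd36 value was -4.31 and no longer called without the host library of LPS mouse 3. The Rac2 call (adjusted p = 0.0415) was lost with library totals, at 0.98, and when any of several single libraries was left out. Among the members, Gas6 had an interaction of -1.21 with the mouse as a block (adjusted p = 0.00894, edgeR), which was not called without the block.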

How the results depend on the processing

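Of 414 values of the members under alternatives, 386 kept their direction and side of the threshold, 5 became called and 23 turned sign, all 23 uncalled estimates. The Axl and Pros1 calls between populations and the Gas6 calls with LPS held wherever they could be fitted. List genes were followed only in comparisons where the main fit called them, so none could become called, unlike the members. Of these 1007 values, 29 lost their call and none turned sign.

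Counts of called genes depended on the filter. With no filter for low counts, 895 genes were higher in engrafted cells at rest and 857 after LPS, against 503 and 528, and 1337 against 861 were lower after LPS in engrafted cells. With at least 10 reads in every library, 230 were higher and 172 lower in engrafted cells at rest, 245 and 136 after LPS, 385 and 431 changed with LPS in engrafted cells, 381 and 490 in host microglia, and 141 and 110 by interaction. That filter left out Gas6 in engrafted cells, since mouse 1 had 5 reads, so that 0 members were called there. By interaction 1 member, Gas6, was called with no filter (-1.20, adjusted p = 0.00429, edgeR) and with the mouse as a replicate block (-1.21), and the block changed no other call of a member. Leaving out 1 library gave 0 to 1 called members by interaction, 135 to 245 genes lower by interaction (main 221; 135 without the host library of LPS mouse 3 and 143 without that of unchallenged mouse 8), and 1 to 2 members called with LPS in host microglia.

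Estimates near 0 turned sign. The Pros1 interaction was 0.04 with RLE size factors and with no filter, 0.03 with DESeq2, 0.05 with limma-trend, 0.01 with the block and 0.08 as within-mouse ratios (chosen after seeing the data), and -0.12 to 0.09 with 1 library left out. The Mertk interaction was -0.32 with limma-trend, -0.27 as within-mouse ratios and -0.25 to 0.67 with 1 library left out, and that of Mfge8 -0.50 to 0.19. Mertk between populations after LPS was -0.88 to 0.03 with 1 library left out. The log2 Axl to Mertk difference was 2.96 to 3.45 at rest (exact permutation test, p = 0.0571, the smallest that 3 against 4 allow), 2.61 to 4.43 after LPS, -0.26 to 1.54 with LPS in engrafted cells and -0.40 to 0.62 in host microglia. The cause was not tested. Mertk, Mfge8 and Timd4 had 0 to 47 reads in a library.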

Other observations

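The genes whose level followed each member most closely over the 16 libraries (Pearson's r of log2(CPM + 1), among 3792 or 3793 genes that averaged 50 CPM or more) are given as a description, since all points share the same libraries and the differences between the 4 groups. For Axl they were Apoe (r = 0.976), which encodes apolipoprotein E, Ms4a7 (0.974), which is on the list of perivascular macrophage markers, and Tmem176a (0.974). For Pros1 they were Cd9 (0.980), a tetraspanin, Mlxipl (0.972), a transcription factor that responds to carbohydrates, and Ldhb (0.959), a lactate dehydrogenase chain. For Gas6 they were Numa1 (0.958), Pdgfb (0.953), a growth factor chain, and Cd300c2 (0.950). For Mertk they were Ythdf2 (0.935), Asxl2 (0.928) and Gsk3b (0.922), and for Mfge8, with few reads per library, the values were lower, Gmeb1 (0.835), Frmd4a (0.819) and Commd9 (0.814).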
